A study of Mus musculus with 2 samples.

Results

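The genes followed here are 9 of the 32285 genes counted in the library, the Toll-like receptor sensing genes Cd14, Ly96, Tlr4, Tlr2, Tlr13, Myd88, Irak2, Irak3 and Trem1. They were taken by symbol, and each symbol occurred once and was detected. Toll-like receptors are membrane proteins that bind microbial products and some proteins released from damaged tissue. Tlr4 binds lipopolysaccharide together with MD-2, the product of Ly96, after CD14 has passed the ligand on. Tlr2 binds bacterial lipoproteins, and Tlr13, which mice have and humans lack, binds bacterial ribosomal RNA inside endosomes. These receptors signal through the adaptor encoded by Myd88, onto which kinases of the IRAK family assemble. Irak2 carries the signal on, and Irak3 (IRAK-M) holds it back. Trem1 is a separate receptor of neutrophils and monocytes that pairs with the adaptor DAP12, encoded by Tyrobp, and amplifies Toll-like receptor responses. In neutrophils these receptors trigger the release of cytokines and granules at sites of infection, and in bone such cytokines act on the cells that build and resorb it.

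The cells were isolated from the linings of femurs and vertebrae of BALB/c females, which underwent bilateral ovariectomy (OVX) or a sham operation at 10 weeks of age and were sampled 4 weeks later, and were sorted with antibodies against CD11b, F4/80 and CD68 as osteal macrophages (Omacs). Cells of 20 mice per condition were pooled, so that there was 1 pool of OVX and 1 of sham mice, and the pools carried different hashtag antibodies (hashtag 1 for OVX, hashtag 2 for sham) in 1 droplet library with the 10x 3′ kit. The deposited matrix holds 2349 barcodes with a median of 4387 UMIs (unique molecular identifiers, each standing for 1 captured RNA molecule). From the hashtag counts, 1059 cells were assigned to OVX and 981 to sham, with medians of 4812 and 3704 UMIs, while 78 barcodes were above the cutoffs of both hashtags and 231 of neither. The labels give 1037 OVX and 1084 sham cells as loaded. To compare shares of cells with a UMI, every cell was cut at random to 1000 UMIs (thinned), and 171 cells with fewer were dropped (48 of them OVX and 85 sham). Levels are given as CPM, the UMIs of a gene summed over a group of cells and scaled to a total of 1000000 for that group, with exact Poisson 95% intervals in parentheses. Ratios of CPM carry exact binomial 95% intervals. All intervals cover counting error only, since there were no replicate animals, and no test between conditions was possible.

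Stages were clusters of cells built after the 9 genes and 60 other pathway genes had been removed from the variable genes, so that their levels did not shape the clusters. The labels give the cells as macrophages, but 3 clusters with 1773 of the 2349 barcodes held 240098 to 329543 CPM of the 10 neutrophil markers in sum and 56.6 to 188.8 CPM of the 14 macrophage markers. They were an immature and cycling neutrophil-like cluster (374 cells, led by Hist1h1b, Ltf, Top2a, Mki67 and Camp), a stefin-high neutrophil-like cluster (333 cells, led by Retnla, Stfa2, Cstdc5, Stfa2l1 and Wfdc21) and a mature neutrophil-like cluster (1066 cells, led by Jaml, Acod1, Gm12840, E230032D23Rik and Tspan13). A cluster of 124 cells led by Pf4, Ppbp, Il7r, Ms4a8a and H2-Aa held 5914 CPM of the macrophage markers and 24108 CPM of the neutrophil markers. Adgre1, the gene of F4/80, was at 64.6 CPM in this cluster against 1.76 to 2.46 CPM in the neutrophil-like clusters. C1qa had 1 UMI and C1qb and C1qc had 0 in it, so it is named by its leading genes as the Pf4 and Arg1 cluster. A further 244 cells led by Gm42418, Jund, Ccdc88b, Dusp5 and Gja5 had the lowest median depth (2305 UMIs). They held 140015 CPM of the neutrophil markers and 101 CPM of the macrophage markers, but are named by their leading genes and left without a cell type. Finally, 208 cells led by Gng11, Saa2, Saa1, Srpx2 and Hspb8 were stromal-like, with 43825 CPM of the stromal markers, a median of 20152 UMIs per cell, and Ptprc, which encodes CD45 of leukocytes, at 5.85 CPM. Itgam, the gene of CD11b, on which the cells had been sorted, was at 23.6 CPM in these stromal-like cells and at 1337 to 2057 CPM in the neutrophil-like clusters.

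The promoters of 6 of the 9 genes were taken from a RefSeq table (GRCm38.p6), and 3 of them are shown because their genes behaved differently between stages. Tlr13 and Trem1 were higher in mature than in immature neutrophil-like cells, whereas Tlr2 differed by less than 1.5-fold with the conditions pooled. In OVX cells alone Tlr2 was at 100.4 CPM in mature and 41.8 CPM in immature cells, so this contrast did not hold in both conditions. The letters GAGGAA, the core bound by the myeloid factor PU.1, GGG and CC with 5 bases between them, a site of NF-kB, and TTGCNNAA, a site of C/EBP factors, were searched on both strands of the 250 bases before each start, and matches are in capitals. Bases that the GENCODE annotation places inside the gene are left out.
Tlr13, chrX:106143025-106143203, plus strand: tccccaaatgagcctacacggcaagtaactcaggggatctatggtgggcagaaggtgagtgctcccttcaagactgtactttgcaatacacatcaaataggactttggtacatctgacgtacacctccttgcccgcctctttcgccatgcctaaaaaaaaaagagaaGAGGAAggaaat
Trem1, chr17:48232489-48232738, plus strand: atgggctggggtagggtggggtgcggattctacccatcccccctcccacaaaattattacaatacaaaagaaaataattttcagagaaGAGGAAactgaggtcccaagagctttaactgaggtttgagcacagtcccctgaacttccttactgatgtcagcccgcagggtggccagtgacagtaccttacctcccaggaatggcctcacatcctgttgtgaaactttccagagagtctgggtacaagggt
Tlr2, chr3:83841768-83841858, minus strand: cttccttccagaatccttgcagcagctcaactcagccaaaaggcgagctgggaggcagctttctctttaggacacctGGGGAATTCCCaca
The windows of Tlr13 and Trem1 held 1 PU.1 core each, 83 to 78 and 162 to 157 bases before the start. The Tlr2 window held no PU.1 core and 1 stretch with 3 overlapping NF-kB matches, between 173 and 163 bases before the start. The windows of Irak2 and Myd88 and 1 of 2 windows of Irak3 held none of the 3 motifs, and the other Irak3 window held 2 overlapping NF-kB matches. Of all 32851 windows of the table, 23.3% held the PU.1 core, 45.8% the NF-kB letters and 9.56% the C/EBP letters, so that these matches are a description of the sequences and not of binding. Windows of Cd14, Tlr4 and Ly96 are not shown.

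Along neutrophil maturation the lipopolysaccharide receptor genes, Tlr13 and Trem1 were higher, and the adaptor and Irak3 differed little. In mature against immature neutrophil-like cells, 6 of the 9 genes were at least 1.5-fold higher (Tlr13, Tlr4, Ly96, Cd14, Trem1 and Irak2) and 0 were at least 1.5-fold lower, where of 7649 genes with at least 30 UMIs in the cells compared 21.9% were higher and 36.7% were lower by as much. The median log2 ratio of the members was 1.30 and that of all genes was -0.17. The same 6 genes were past 1.5-fold when cells were clustered by Leiden, into 8 clusters or after a filter on barcodes, and when each cell had the same weight. The plot of levels by cluster shows the 9 genes in turn.

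**Figure D1:**
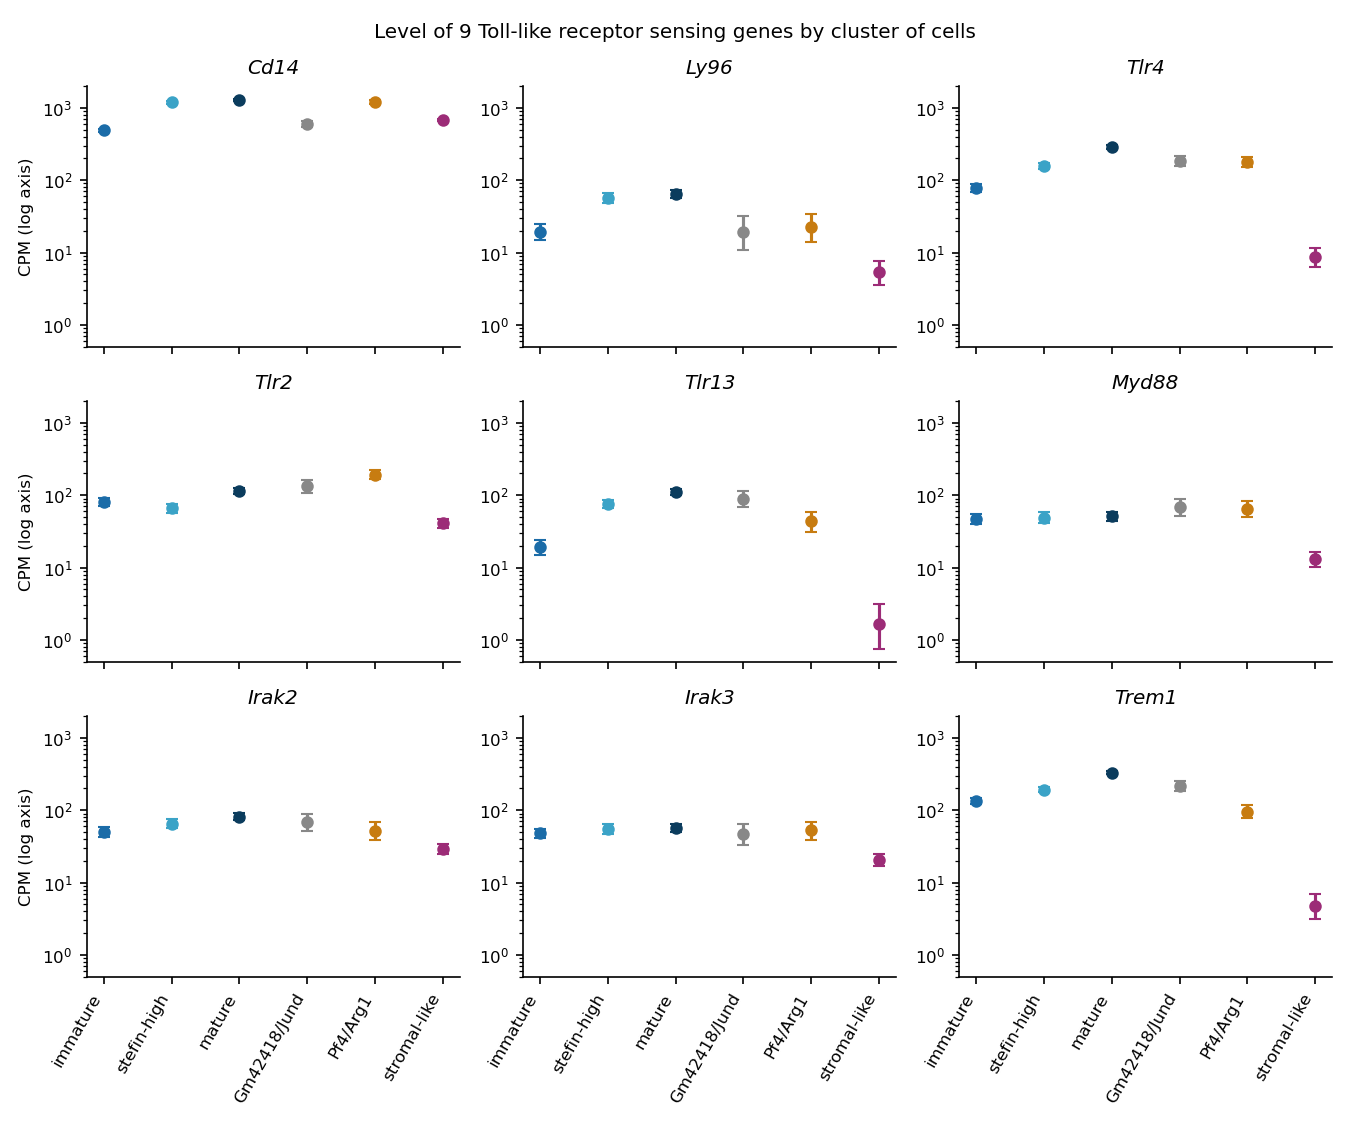
Level of each of the 9 genes (CPM, log axis) in the immature, stefin-high and mature neutrophil-like clusters, the Gm42418 and Jund cluster, the Pf4 and Arg1 cluster and the stromal-like cluster. Points are CPM of summed UMIs and bars exact Poisson 95% intervals. Tlr4 runs from 78.5 CPM in immature to 288 CPM in mature neutrophil-like cells and 8.60 CPM in stromal-like cells, whereas Cd14 stays between 493 and 1274 CPM in every cluster.

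Among the lipopolysaccharide receptor genes, Tlr4 (chromosome 4 from 66827584 to 66930284, plus strand, GRCm38) was at 78.5 CPM (69.4 to 88.5) in immature, 155.6 CPM (142 to 170.4) in stefin-high and 288 CPM (271 to 305) in mature neutrophil-like cells. The mature cells were 3.66-fold (3.20 to 4.20) above the immature cells, and the stefin-high cells lay between them. Ly96 (chromosome 1 from 16688051 to 16709611, plus strand) was at 19.3 CPM (14.96 to 24.6), 56.8 CPM (48.5 to 66.0) and 65.2 CPM (57.6 to 73.6) in the same order, a ratio of 3.37 (2.57 to 4.49) between mature and immature cells. Its levels in mature and stefin-high cells did not differ beyond counting error (ratio 1.15, 0.94 to 1.40). Cd14 (chromosome 18 from 36725067 to 36726798, minus strand) was at 493 CPM (470 to 517), 1184 CPM (1145 to 1223) and 1274 CPM (1239 to 1309), a ratio of 2.58 (2.44 to 2.73) between mature and immature cells. Its 3 highest clusters were the mature, the Pf4 and Arg1 and the stefin-high clusters at 1274, 1198 and 1184 CPM, and neighbours in that order did not differ beyond counting error (ratios 1.06, 1.00 to 1.13, and 1.012, 0.95 to 1.08).

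Of the other receptors, Tlr13 (chromosome X from 106143204 to 106160493, plus strand) showed the largest ratio among the 9 genes. It was at 19.0 CPM (14.7 to 24.3) in immature, 75.9 CPM (66.4 to 86.5) in stefin-high and 111 CPM (101 to 122) in mature neutrophil-like cells, and mature cells were 5.84-fold (4.50 to 7.70) above immature cells. After each cell was thinned to 1000 UMIs, Tlr13 was found in 1.10% of immature and 9.65% of mature cells, and in 0 of 196 stromal-like cells, which at that depth allows a share of up to 1.53%. At full depth 3.85% of the 208 stromal-like cells had a Tlr13 UMI. Tlr2 (chromosome 3 from 83836272 to 83841767, minus strand) followed another order. It was highest in the Pf4 and Arg1 cluster at 192 CPM (165 to 221), followed by the Gm42418 and Jund cluster at 132 CPM (108 to 161) and the mature neutrophil-like cluster at 113 CPM (103 to 124), while immature cells had 80.3 CPM (71.1 to 90.4) and stefin-high cells 65.5 CPM (56.6 to 75.4). The ratio of mature to immature cells was 1.41 (1.21 to 1.65). It came to 2.20 with 1000 variable genes, 1.58 without barcodes above both hashtag cutoffs and 0.94 when the members and the pathway genes were kept among the variable genes. By condition, mature and immature cells held Tlr2 at 100.4 and 41.8 CPM in OVX and at 123.4 and 95.8 CPM in sham.

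Downstream of the receptors the differences between stages were small. Myd88 (chromosome 9 from 119335934 to 119341411, minus strand) lay between 46.6 and 68.7 CPM in the 5 clusters outside the stromal-like cells, and none of the 4 pairs of neighbours in that order differed beyond counting error. Irak3 (chromosome 10 from 120141648 to 120202130, minus strand) lay between 46.7 and 57.4 CPM in these clusters, again with no neighbours apart. The ratio of mature to immature cells was 1.10 (0.89 to 1.36) for Myd88 and 1.20 (0.98 to 1.48) for Irak3. For both genes the highest cluster was not compared with the lowest, so a difference between the ends is not excluded. Irak2 (chromosome 6 from 113638467 to 113695026, plus strand) was at 49.8 CPM (42.6 to 57.9) in immature, 64.8 CPM (56.0 to 74.7) in stefin-high and 81.2 CPM (72.7 to 90.5) in mature neutrophil-like cells. The ratio of mature to immature cells was 1.63 (1.35 to 1.97), close to the 1.5-fold used for counting. The amplifying receptor gene Trem1 (chromosome 17 from 48232768 to 48246924, plus strand) was at 134 CPM (122 to 147) in immature, 192 CPM (176 to 208) in stefin-high and 329 CPM (312 to 348) in mature neutrophil-like cells. Mature cells held 2.46 times (2.21 to 2.74) the level of immature cells, and thinned to 1000 UMIs, 26.2% of mature, 12.7% of immature and 1.53% of stromal-like cells had a Trem1 UMI.

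The stages were also cut without clusters, by the share of a cell's UMIs on the secondary granule genes Ltf, Camp, Ngp, Lcn2 and Chil3, which neutrophils make while immature. The 1773 neutrophil-like cells were divided into 4 bins of 443 or 444 cells. Tlr4 was at 83.7, 191 and 253 CPM in the 3 bins with most granule RNA, from the highest share downwards, and at 355 CPM in the bin with the least. Tlr13 was at 23.5, 78.3, 113 and 137 CPM in the same order, Trem1 at 145.8, 209, 301 and 405 CPM, and Ly96 at 28.0, 53.1, 60.9 and 77.02 CPM. These 4 genes therefore stood higher in each bin with less granule RNA. Cd14 was at 632 CPM in the bin with most granule RNA and at 1155 to 1349 CPM in the other 3. Myd88 was at 50.01 CPM in that bin and 42.8 CPM in the bin with the least, and Tlr2 was at 81.9 and 94.9 CPM.

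**Figure D2:**
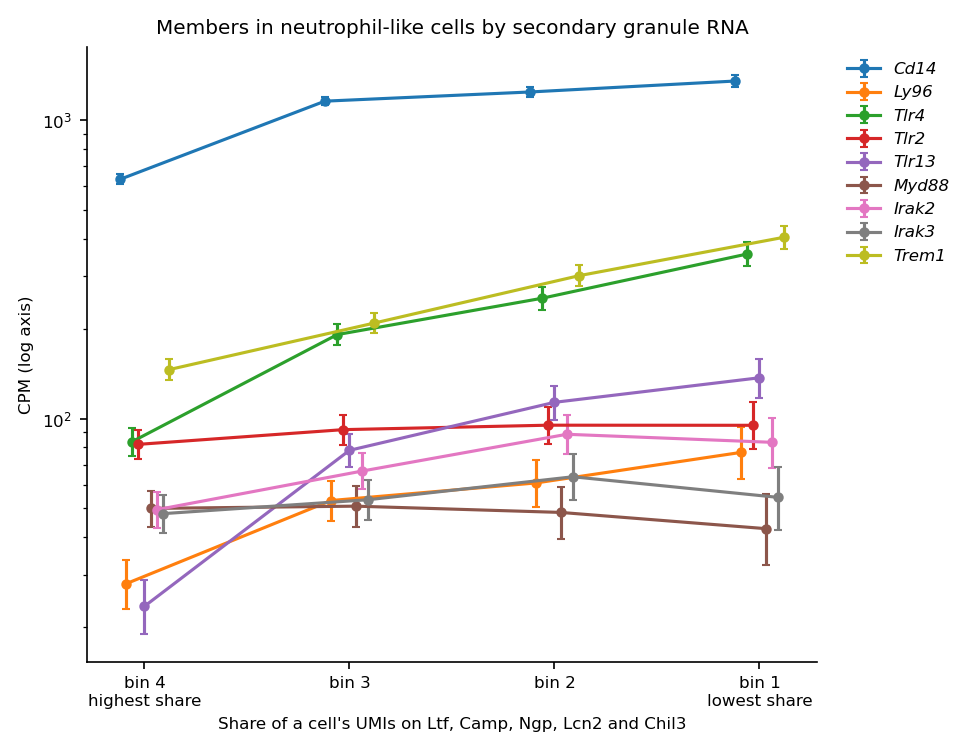
Level of the 9 genes (CPM, log axis) in 4 equal bins of neutrophil-like cells by their share of UMIs on Ltf, Camp, Ngp, Lcn2 and Chil3, from the highest share (left) to the lowest (right). Points are CPM and bars exact Poisson 95% intervals. Tlr13 runs from 23.5 to 137 CPM and Tlr4 from 83.7 to 355 CPM, while Myd88 (50.01 and 42.8 CPM at the ends) runs level.

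Within the immature cluster the levels were lower still in dividing cells. Of its 374 cells, 58 had at least 2 UMIs of the cell cycle genes Mki67 and Top2a together, a split chosen after the clusters were seen. Tlr13 was at 7.93 CPM (3.19 to 16.3) in these and at 22.9 CPM (17.4 to 29.6) in the other 316 cells, Cd14 at 206 and 593 CPM, Tlr2 at 32.9 and 96.8 CPM, Tlr4 at 41.9 and 91.3 CPM, and Trem1 at 56.7 and 161 CPM. Myd88 was at 31.7 CPM (21.1 to 45.9) and 51.8 CPM (43.3 to 61.4), and Irak3 at 43.1 CPM (30.5 to 59.1) and 49.4 CPM (41.1 to 58.9). Against the other 316 cells alone, mature cells were still at least 1.5-fold higher in 5 of the 9 genes, with Irak2 at 1.45 (1.19 to 1.77).

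The stefin-high cluster and the Pf4 and Arg1 cluster differed from the mature neutrophil-like cells in different members. Against immature cells, 4 of the 9 genes were at least 1.5-fold higher in stefin-high cells (Tlr13, Ly96, Cd14 and Tlr4), where 12.3% of all genes were. Against mature cells, 3 were at least 1.5-fold lower in stefin-high cells, where 18.3% of all genes were, namely Tlr4 (0.54, 0.48 to 0.60), Tlr2 (0.58, 0.49 to 0.68) and Trem1 (0.58, 0.53 to 0.64). Tlr13 joined them with equal weight per cell (0.63, against 0.68 in summed UMIs). These comparisons share the immature or the mature cells. They are also not matched for condition, since stefin-high cells were 294 OVX and 30 sham and mature cells 439 and 550. Among OVX cells alone, stefin-high and mature cells held Tlr2 at 67.4 and 100.4 CPM, just short of 1.5-fold. Tlr4 was at 157.4 and 294.4 CPM and Trem1 at 187.5 and 325.1 CPM in the same cells. Immature OVX cells held Tlr2 at 41.8 CPM and Trem1 at 116.8 CPM, below the stefin-high OVX cells. In sham cells Tlr2 was at 41.3 CPM in stefin-high cells (11 UMIs) and at 95.8 CPM in immature cells. The order of Tlr2 between stefin-high and immature cells therefore differed by condition, and the 4 genes above were counted with conditions pooled. In the Pf4 and Arg1 cluster, Tlr2 was 1.69-fold (1.42 to 2.00) higher than in mature neutrophil-like cells, where 50% of all genes were at least 1.5-fold higher, and with equal weight per cell the ratio was 1.29. There 5 members were at least 1.5-fold lower, against 22.4% of all genes, namely Trem1 (0.29, 0.23 to 0.36), Ly96 (0.34, 0.21 to 0.53), Tlr13 (0.39, 0.28 to 0.53), Tlr4 (0.62, 0.53 to 0.73) and Irak2 (0.63, 0.46 to 0.85). When the cells were divided into 8 clusters, a cluster of 392 cells led by Retnlg, Hdc, Lmnb1, Thbs1 and Lyz2 separated, in which Tlr4 was at 203, Tlr13 at 65.6, Trem1 at 265 and Tlr2 at 138 CPM, against 333, 136, 361 and 101.7 CPM in the remaining 720 mature cells.

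Stromal-like cells held Cd14 but little Tlr4 and Ly96. Of the 9 genes, 8 were at least 1.5-fold lower in stromal-like than in neutrophil-like cells, where 25% of all genes were, and Cd14 was at 687 CPM (665 to 709) against 993 CPM (974 to 1012), or 69.1% (66.6 to 71.8) of the neutrophil-like level. With equal weight per cell it was at 63.1%, which is past 1.5-fold. RNA released from broken cells can enter any droplet, so the same percentage was taken for 12 neutrophil genes that stromal cells should lack. For 11 of these it lay between 0.632% (S100a8) and 2.15% (Mmp9), and Camp was the exception at 26.6%. Their median was 1.17%, which would place Cd14 at 11.6 CPM in stromal-like cells.

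The other members ran from 46.0% down to 2.10% by this measure. Tlr2 (46.0%, 39.6 to 53.3), Irak2 (43.6%, 36.4 to 51.9), Irak3 (38.3%, 31.0 to 47.0), Myd88 (26.5%, 20.3 to 34.0) and Ly96 (11.1%, 7.35 to 16.1) were above the 11 neutrophil genes. Tlr4 was at 4.73% (3.46 to 6.32), or 8.60 CPM (6.32 to 11.4) in stromal-like cells, also above them. Camp, set apart from these 11 once its value had been seen, was at 26.6%, beside Myd88 and above Ly96 and Tlr4. Trem1 (2.10%, 1.37 to 3.09) and Tlr13 (2.32%, 1.05 to 4.42) were within the range of the 11 genes by their intervals, so that their levels in stromal-like cells cannot be told apart from background. In the 104 stromal-like cells with the larger share of S100a8 and S100a9 UMIs, Cd14 was at 594 CPM, and in the other 104 at 783 CPM (ratio 0.76, 0.71 to 0.81). Itgam was at 34.4 and 12.3 CPM in the same cells, and Trem1 at 5.38 and 4.11 CPM. Camp was at 186 and 529 CPM (ratio 0.35, 0.32 to 0.39). The other neutrophil genes, among them S100a8 and S100a9 that made the split, had ratios between 1.15 (Ngp) and 2.79 (Itgam).

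**Figure D3:**
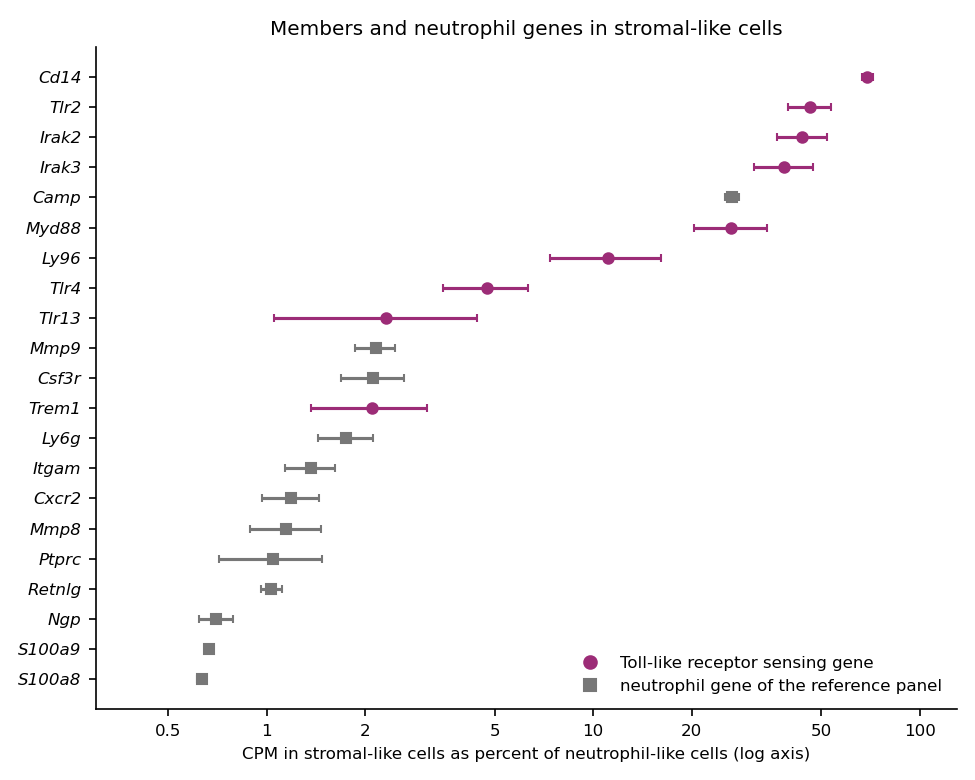
CPM in stromal-like cells as a percentage of CPM in neutrophil-like cells (log axis) for the 9 genes (circles) and 12 neutrophil genes that stromal cells should lack (squares). Bars are exact 95% intervals of counting error. Cd14 lies at 69.1% and Trem1 at 2.10%, and 11 of the 12 neutrophil genes lie at or below 2.15%.

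Cd14 in stromal-like cells varied widely from cell to cell. A UMI of it was found in 81.7% of the 208 cells, with a median of 7 UMIs per cell (quartiles 1 and 20, highest 283), against a median of 3 (1 and 7, highest 62) in mature neutrophil-like cells, which are much shallower. After thinning to 1000 UMIs the shares were 31.6% and 60.1%. Tlr4 UMIs were found in 18.3% of stromal-like cells and in 2.04% after thinning, and Ly96 in 9.62% at full depth and in 0 of 196 after thinning, which at that depth allows up to 1.53%. All 3 genes of the lipopolysaccharide receptor occurred together in 4 of 208 stromal-like cells (1.92%), against 119 of 1066 mature (11.2%), 67 of 333 stefin-high (20.1%) and 28 of 374 immature (7.49%) neutrophil-like cells and 18 of 124 cells (14.5%) of the Pf4 and Arg1 cluster. The products of the single shares were 1.44%, 8.99%, 17.7%, 3.76% and 3.98% in the same order. These shares depend on depth, and after thinning Tlr4 and Cd14 occurred together in 16.4% of mature cells (product 14.9%), 4.97% of immature cells (product 2.56%) and 0 of 196 stromal-like cells.

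Between OVX and sham, 8 of the 9 genes were less than 1.5-fold apart over all assigned cells. OVX cells held Tlr13 at 71.3 CPM and sham cells held it at 38.4 CPM, a ratio of 1.86 (1.60 to 2.17), where 5.91% of 10475 genes were higher and 24.9% were lower in OVX. Ly96 came next at 44.5 and 29.7 CPM (ratio 1.498, 1.25 to 1.80, just under the 1.5-fold limit), and the other 7 had ratios between 0.78 (Tlr2, 75.8 and 97.0 CPM) and 1.24 (Irak3, 52.7 and 42.4 CPM). The median log2 ratio was 0.16 for the members and -0.24 for all genes. The share of stefin-high cells was 27.8% in OVX and 3.06% in sham, and that of immature cells 10.5% and 20.7%. The ratios of the members were therefore also taken with every cluster at the same share in both conditions, though parts within a cluster were not matched. The median of all genes was not taken in this way. Tlr13 was then at 94.2 and 57.3 CPM (ratio 1.64), Ly96 at 53.0 and 40.8 CPM (1.30), Tlr2 at 91.8 and 106 CPM (0.87) and Cd14 at 1050.1 and 1020 CPM (1.03).

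**Figure D4:**
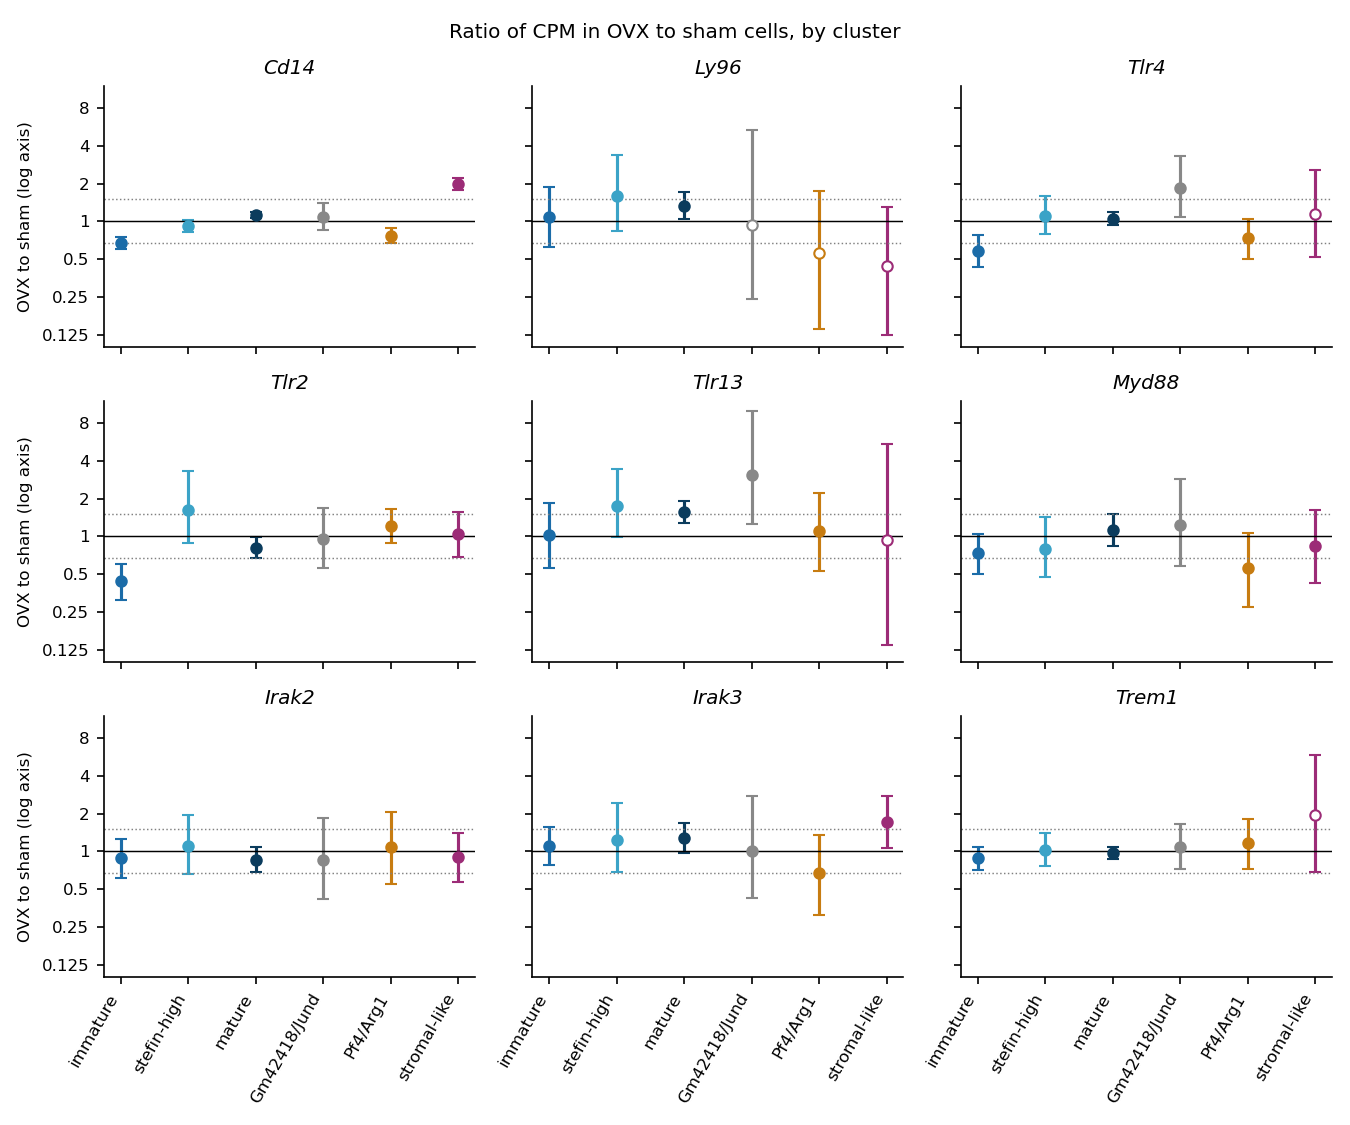
OVX level divided by sham level, both in CPM (log axis) for the 9 genes in each of 6 clusters, with exact 95% intervals of counting error. The solid line marks equal levels and the dotted lines 1.5-fold, and open circles have fewer than 30 UMIs in both conditions together. Tlr2 in immature neutrophil-like cells (0.44) and Cd14 in stromal-like cells (1.97) lie outside the dotted lines on opposite sides, whereas Trem1 lies within them in the 5 clusters other than the stromal-like.

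In mature neutrophil-like cells (439 OVX and 550 sham), the OVX level of Tlr13 was 134.8 CPM and the sham level 86.0 CPM, a ratio of 1.57 (1.28 to 1.92). It was the only member of the 9 past 1.5-fold in this cluster, where 14.9% of all genes were higher. The difference was smaller within the 4 bins by granule RNA, which were compared after the data were seen, with ratios of 1.22 (0.89 to 1.68), 1.43 (1.04 to 1.97), 1.49 (1.08 to 2.08) and 1.45 (0.92 to 2.29) from the least to the most granule RNA. Tlr13 was higher in OVX in each bin and past 1.5-fold in 0 of the 4. In the clustering that set a Retnlg-led cluster apart from mature cells, that cluster held 69 OVX and 265 sham cells, with Tlr13 at 65.6 CPM. The Jaml-led cluster that remained held 372 OVX and 320 sham cells, with Tlr13 at 136 CPM. The conditions were thus unequally spread over parts that differ in Tlr13, in the direction of the ratio of 1.57. The part of this spread in that ratio was not tested. In the stefin-high cluster Tlr13 (79.1 and 45.1 CPM), Tlr2 (67.4 and 41.3 CPM) and Ly96 (59.5 and 37.6 CPM) were past 1.5-fold, where 27.3% of all genes were, but only 30 sham cells with 10 to 12 UMIs of each stood against 294 OVX cells, and each interval included 1. With equal weight per cell the ratios were 1.04 for Tlr13, 1.44 for Tlr2 and 2.05 for Ly96. In the Gm42418 and Jund cluster Tlr13 (103 and 33.3 CPM, ratio 3.10, 1.25 to 9.93) and Tlr4 (195 and 107 CPM, 1.83, 1.08 to 3.33) were past 1.5-fold, where 19.8% of all genes were, with 5 and 16 UMIs in the 81 sham cells.

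Immature neutrophil-like cells of the OVX pool held less Tlr2 and Tlr4. The 111 OVX cells held Tlr2 at 41.8 CPM and the 203 sham cells at 95.8 CPM (ratio 0.44, 0.31 to 0.60), and Tlr4 at 54.9 and 94.2 CPM (0.58, 0.43 to 0.78), the only 2 members past 1.5-fold in summed UMIs, where 13.6% of all genes were lower by as much. Cd14 was at 388 and 574 CPM (0.68, 0.60 to 0.76), just inside that limit. Tlr13 was at 17.4 and 17.0 CPM (1.03, 0.55 to 1.86) and Ly96 at 20.9 and 19.2 CPM (1.09, 0.62 to 1.89) in these cells. With equal weight per cell 5 members were lower in OVX by at least 1.5-fold, namely Tlr2 (0.38), Tlr4 (0.46), Tlr13 (0.54), Myd88 (0.56) and Cd14 (0.66). The share of all genes lower by as much was not computed with equal weight, so this count has no measure beside it. Myd88 was at 0.65 (0.43 to 0.95) without the cell with the most UMIs in each condition. The Tlr2 ratio was 0.42 without the cell with the most Tlr2 UMIs in each condition and 0.42 with the other hashtag rule. Cycling cells, in which Tlr2 was lower, made up 21.6% (14.4 to 30.4) of immature OVX cells and 13.3% (8.95 to 18.8) of immature sham cells. Among the cells that were not cycling, the 87 OVX cells held Tlr2 at 49.4 CPM and the 176 sham cells at 113 CPM (0.44, 0.30 to 0.62) and Tlr4 at 61.7 and 109.8 CPM (0.56, 0.40 to 0.78). By granule bins, Tlr2 was at 0.50 (0.38 to 0.65) and 0.59 (0.46 to 0.76) of its sham level in the 2 bins with the most granule RNA and at 0.87 (0.64 to 1.19) and 1.00 (0.68 to 1.47) in the other 2. The bins mix clusters. The bin with the most granule RNA held 331 immature, 73 stefin-high and 39 mature cells, and the next bin 39, 162 and 242. The part of this mixture in the bin ratios was not tested. Tlr4 was at 0.68 (0.53 to 0.86) of its sham level in the bin with the most granule RNA, short of 1.5-fold, and at 0.86 to 0.93 in the other 3. Cd14 was at 0.97 (0.90 to 1.06) in the bin with the most granule RNA, and the thinned shares of immature cells with a Cd14 UMI were 30.6% (22.1 to 40.2) in OVX and 32.0% (25.5 to 39.0) in sham.

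In the Pf4 and Arg1 cluster (38 OVX and 64 sham cells) only Myd88 was past 1.5-fold in summed UMIs, at 43.2 and 76.6 CPM (0.56, 0.27 to 1.07), where 20.7% of all genes were lower. These ratios depended on the weight of cells, and with equal weight per cell Tlr13 was at 2.08 and Tlr4 (0.46), Irak3 (0.44), Irak2 (0.49), Cd14 (0.63) and Myd88 (0.61) were lower. Single cells held 18.2% to 33.3% of the OVX UMIs of these 6 genes, and the share of all genes was not computed with equal weight. With 8 clusters, 77 cells led by Pf4 (21 OVX and 49 sham) had a median of 9228 UMIs and Cd14 at 1281 CPM. Another 48 cells led by Gm10800 (17 OVX and 16 sham) had a median of 1143.5 UMIs and Cd14 at 317 CPM. The part of such shallow cells in the equal-weight ratios was not tested. In stromal-like cells 111 of the 208 barcodes were under the cutoffs of both hashtags, which left 38 OVX and 53 sham cells. The OVX cells held Cd14 at 678 CPM (634 to 724) and the sham cells at 344 CPM (315 to 374), a ratio of 1.97 (1.77 to 2.20), and Irak3 at 34.0 and 19.99 CPM (1.70, 1.05 to 2.77), where 7.11% of all genes were at least 1.5-fold higher. A single OVX cell held 32.3% of the Cd14 UMIs of its group, and without the cell with the most UMIs in each condition the ratios were 1.55 (1.38 to 1.76) for Cd14 and 1.22 (0.66 to 2.25) for Irak3. With equal weight per cell they were 1.31 and 1.27. With the other hashtag rule, which gave 28 OVX and 111 sham cells, they were 1.34 and 1.99. The share of stromal-like cells with a Cd14 UMI after thinning was 23.7% (11.4 to 40.2) in OVX and 26.4% (15.3 to 40.3) in sham. The neutrophil genes S100a8 and S100a9 were 2.68-fold and 1.96-fold higher in the same OVX cells, with 40.0% and 30.5% of their OVX UMIs in 1 cell each. The part of these 2 genes in the Cd14 ratio was not tested. The 111 cells under both cutoffs had Cd14 at 945 CPM (907 to 985), above either condition.

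The other genes of the pathway were taken from a list of 60, of which 45 had at least 30 UMIs in mature and immature neutrophil-like cells together. There 18 were at least 1.5-fold higher in mature cells and 9 lower, beside 21.9% and 36.7% of all genes, with a median log2 ratio of 0.32. Among receptors, Tlr6 (41.6 against 13.2 CPM) and Tlr1 (16.0 against 2.64 CPM), which pair with Tlr2, were higher in mature cells, and Tlr3, Tlr9, Tlr11, Tlr12 and Cd180 had 0 to 1 UMI in the neutrophil-like clusters. Of adaptors and kinases, Tirap, the bridge between Tlr4 and Myd88, was at 133 against 81.8 CPM, Ikbkg, the regulatory subunit of the IkB kinase, at 169 against 31.9 CPM, and the ubiquitin ligase gene Peli1 at 134 against 65.6 CPM. Irak1 was lower, at 35.2 against 53.9 CPM. Of restraints, the phosphatase gene Dusp1 (292 against 68.6 CPM), Tnip1 (67.2 against 31.1 CPM) and Socs1 (85.9 against 53.6 CPM) were higher. On the Trem1 route, Syk was at 379 against 163 CPM and Tyrobp at 3066 against 1849 CPM, while Pglyrp1, a ligand of Trem1, was at 183 against 747 CPM.

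Matrix and serum amyloid ligands were higher in stromal-like cells, S100a8 and S100a9 in neutrophil-like cells, and Hmgb1 was at 540 and 475 CPM in stromal-like and neutrophil-like cells. The genes S100a8 and S100a9, whose proteins form a ligand of Tlr4, were at 115123 and 156775 CPM in neutrophil-like and at 727 and 1042 CPM in stromal-like cells. The matrix genes Dcn, Fn1 and Bgn were at 16529, 10391 and 677 CPM in stromal-like and at 87.4, 75.1 and 3.06 CPM in neutrophil-like cells, and the serum amyloid genes Saa1 and Saa2 at 727 and 117 CPM against 1.63 and 0.19 CPM. Stromal-like cells also held Lbp, the lipopolysaccharide binding protein that loads CD14, at 160.9 CPM against 3.35 CPM, and Il1rl1, a receptor that restrains Tlr4 signalling, at 199 against 4.88 CPM. Of 47 pathway genes with enough UMIs, 12 were at least 1.5-fold higher and 29 lower in stromal-like than in neutrophil-like cells, where 57.1% of all genes were higher and 25% lower. The median log2 ratio was -1.25 for these genes and 1.03 for all genes. Among the lower were Tyrobp (31.1 against 2474 CPM), Syk (7.32 against 265 CPM), Unc93b1, which escorts endosomal receptors (2.19 against 53.7 CPM), and Pik3ap1 (0.73 against 65.9 CPM). Hsp90b1, a chaperone of Toll-like receptors, was higher at 1064 against 286 CPM, as was Ube2n at 141 against 86.4 CPM.

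**Figure D5:**
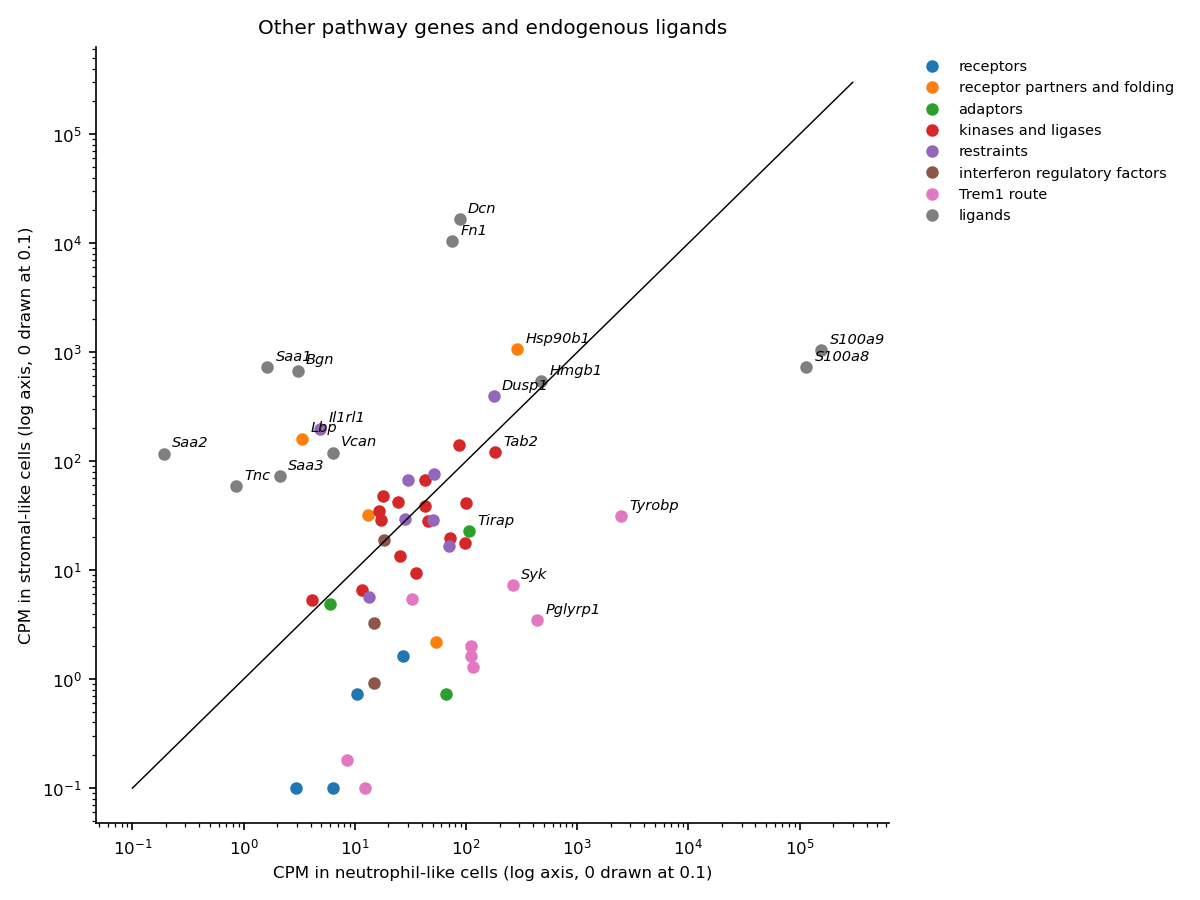
CPM in stromal-like cells against CPM in neutrophil-like cells (both log axes) for the genes of the pathway and ligand lists with at least 30 UMIs in both groups together, coloured by role, with a line of equal levels and levels of 0 drawn at 0.1. Matrix and serum amyloid ligands lie above the line (Dcn 16529 against 87.4 CPM), S100a8, S100a9 and the genes of the Trem1 route below it (Tyrobp 31.1 against 2474 CPM).

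Between OVX and sham over all assigned cells, 5 of 49 pathway genes were at least 1.5-fold higher and 6 lower, with a median log2 ratio of -0.01, beside 5.91% and 24.9% of all genes and their median of -0.24. The higher genes were Irf7, an interferon regulatory factor (17.7 against 7.12 CPM), Tlr1 (11.8 against 6.19 CPM), Tlr8 (3.33 against 2.01 CPM), Hcst, the DAP10 adaptor gene (101.6 against 61.0 CPM), and Treml4 (13.2 against 7.74 CPM). The lower genes were Cd36 (8.33 against 26.9 CPM), Trem2 (1.80 against 3.71 CPM), Trem3 (61.9 against 94.5 CPM), Hsp90b1 (399 against 603 CPM), its cofactor Cnpy3 (16.3 against 24.8 CPM) and Zc3h12a (31.5 against 49.1 CPM). Unlike those of the members, these ratios were not taken at equal cluster shares. Cd36 was at 230 CPM in the Pf4 and Arg1 cluster, which held 3.59% of OVX and 6.52% of sham cells. In the other clusters Cd36 was at 0.29 to 2.59 CPM. With the other hashtag rule Trem2, Trem3 and Zc3h12a were no longer past 1.5-fold. Of the 11 ligands, Saa1, Saa2 and Saa3 were higher and Vcan and Tnc lower, against the same shares of all genes. The OVX and sham levels of Saa2 were 77.2 and 2.48 CPM, but 601 of its OVX UMIs lay in 3 stromal-like cells, and Saa1 and Saa3 had 55.0% and 52.2% of their OVX stromal-like UMIs in 1 cell each. With 2-fold in place of 1.5-fold, Irf7, Cd36 and Trem2 remained of the 60 pathway genes.

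The genes most like each member were taken over the 12 groups of cluster and condition with at least 20 cells, by Pearson correlation of log2(CPM + 10) among 5558 genes, as a description. These groups share 1 library and differ in depth, and every group of stromal-like cells lies low in most members. Trem1 was most like Lilr4b, Lilrb4a and Gcnt1 (r = 0.996, 0.995 and 0.99), the first 2 being receptors so alike in sequence that reads may be shared between them. Tlr4 was most like Clec4d, Slc6a6 and Rhbdf2 (0.986, 0.981 and 0.978), Tlr13 like Tpd52, N4bp1 and Ngly1 (0.973, 0.971 and 0.964), and Ly96 like Irf2, Map1lc3b and Bcl10 (0.939, 0.933 and 0.920). Tlr2 was most like Eloa, Sptlc2 and Rab11a (0.944, 0.916 and 0.904). Cd14 had weaker matches in Fth1, Mlxip and Cstb (0.912, 0.835 and 0.833), as had Irak3 in Arl11, Slc31a2 and Chkb (0.901, 0.891 and 0.887). Myd88 was most like Pgd, Rnf130 and Usp25 (0.961, 0.956 and 0.953) and Irak2 like Mpp1, Tbc1d20 and Ndel1 (0.977, 0.975 and 0.972). Among the members themselves, Tlr4 had r = 0.94 with Tlr13, 0.93 with Trem1 and 0.90 with Irak2, and the lowest value was that of Tlr2 with Ly96 at 0.23.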

How the data were processed

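The authors aligned the reads to mm10 with Cell Ranger (6.0.0 in the file header, 6.0.1 in the processing notes) and deposited UMI counts for 32285 genes and 2 hashtags, without normalization, in the barcodes taken as cells. The hashtag library is not analysed here on its own. Condition came from the hashtag counts alone, by HTODemux (Seurat 5.3.0, R 4.3.3, positive quantile 0.99). Barcodes above both cutoffs were left out of comparisons of OVX with sham. No doublet caller was run, so doublets within a condition remain.

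Clusters were made with scanpy 1.11.5 (Python 3.11.15): counts scaled to 10000 per cell, log values, 2000 variable genes without the members and the pathway list, 30 principal components, 15 neighbors, and Louvain at the lowest resolution giving 6 clusters (0.35). CPM and every ratio (fold) were computed from the deposited counts. With 1 pool per condition no p-value was made. The alternatives were other variable genes, Leiden (leidenalg 0.10.2), 8 clusters, a barcode filter (500 or more genes, mitochondrial share up to 10%), another hashtag rule (80% of at least 10 hashtag UMIs), equal weight per cell, other folds, minimum UMIs and thinning.

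On simulated counts of OVX against sham over all assigned cells, 95.7% of genes changed 2-fold and 100% of those changed 4-fold were past 1.5-fold. The simulation held counting error only, without differences between cells or in cluster shares, so it does not cover those sources. Members and lists were chosen with earlier results of these data known. Named genes are the members, listed genes at 50 CPM or more with at least 100 UMIs in a cluster or past 1.5-fold between conditions, the 3 genes most like each member, and 5 leading genes per cluster at 100 CPM or more. Tlr1, Tlr3, Tlr6, Tlr9, Tlr11, Tlr12 and Cd180 were named after their values were seen. Coordinates come from GENCODE M21 and promoters from RefSeq, both on GRCm38.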

Additional observations from a re-analysis of the deposited data

Results flagged for a closer look

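The ratio of OVX to sham for Cd14 lay on opposite sides of 1 in different clusters, with intervals of counting error that did not hold 1. It was 1.97 in stromal-like cells (38 and 53 cells; 1.55 without the cell with the most UMIs in each condition and 1.31 with equal weight per cell) and 0.675 in immature neutrophil-like cells (111 and 203 cells). In the bin with the most granule RNA, which held 331 of the immature cells, it was 0.97 (0.90 to 1.06). That bin also held 73 stefin-high and 39 mature cells, and the stefin-high cluster was 294 OVX and 30 sham cells. Its ratio is therefore not one of immature cells alone, and the part of the other cells in it was not tested. Tlr4 had a ratio of 1.83 in the Gm42418 and Jund cluster, with 16 UMIs in sham cells, and 0.583 in immature neutrophil-like cells. These differences between clusters were not tested, since each condition is 1 pool.

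The 111 stromal-like cells under the cutoffs of both hashtags entered no comparison of conditions by the main hashtag rule. Cd14 was at 945 CPM in them, above the 344 CPM of sham stromal-like cells. The main rule gave 38 OVX and 53 sham stromal-like cells, and the other rule 28 and 111. Some of the cells under both cutoffs therefore entered the ratios of the other rule, and the Cd14 ratio depends on which cells are called sham.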

How the results depend on the processing

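The number of members at least 1.5-fold higher in mature than in immature neutrophil-like cells was 6, and between 5 and 8 under the 10 alternatives tried, with 0 lower in each. Cd14 in stromal-like cells was at 69.1% of the neutrophil-like level. It came to 72.5% with the barcode filter, 63.1% with equal weight per cell and 65.4% without the cell with the most UMIs in either group (added once the data had been seen). The members past 1.5-fold between OVX and sham numbered 1, Tlr13. They were 2, Tlr13 and Ly96, with the other hashtag rule (ratios 2.25 and 1.85), with the barcode filter and without the cell with the most UMIs. They were 0 at 2-fold. The 11 pathway genes past 1.5-fold became 3 at 2-fold, and 14 with the other hashtag rule, where Trem2, Trem3 and Zc3h12a left and Tlr6, Irf5, Card9, Lbp, Ticam2 and Il1rl1 entered. Of mature cells, 16.4% held Tlr4 and Cd14 together at 1000 UMIs and 6.47% at 500 UMIs (product 6.01%), which follows from the lower depth. Within clusters, several ratios of OVX to sham moved by over 1.5 times with equal weight per cell (also added then), and Tlr13 in immature cells went from 1.03 to 0.54, across 1. With few UMIs in the stefin-high sham cells and in stromal-like cells, ratios there are known only within wide intervals. No paired analysis was possible because each condition is 1 pool.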
